A study of Mus musculus with 7 samples.

Results

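The genes described here encode the proteins that seal and hold together neighbouring epithelial cells: Cdh1, Cldn3, Cldn4, Cldn7, Cldn8, Ocln, Tjp1, Tjp3, Cgn and F11r. They were chosen from general knowledge of epithelial tight and adherens junctions, but with earlier results of these data known. They are the genes of these names in the platform annotation and make up 10 of the 18193 genes measured. All 10 were on the array, through 16 of its 45037 probe sets. RNA was measured on Affymetrix 430 2.0 arrays in luminal cells, the secretory cells that line the prostate gland, from 3 samples of wild-type mice (WT A to C) and 4 of T-ETV1 mice (T-ETV1 A to D). In T-ETV1 mice a human cDNA of the ETS transcription factor ETV1 is driven from the promoter of the mouse's own Tmprss2 gene. Cells of both genotypes were sorted as negative for CD31, CD45, Ter119 and Sca1 and positive for CD49f, and T-ETV1 cells were in addition GFP positive, so that genotype and this extra gate cannot be told apart. For age, strain and any pooling of animals, the entry is not given in the sources used here.

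Epithelial cells are joined near their apical side by a tight junction, which limits what passes between the cells, and below it by an adherens junction, which holds them together. Claudins and occludin span the membrane and form the tight junction strands, the junctional adhesion molecule F11r lies beside them, and the cytoplasmic proteins Tjp1, Tjp3 and cingulin tie the strands to the actin cytoskeleton. E-cadherin, the product of Cdh1, is the adhesion receptor of the adherens junction and binds catenins inside the cell. In the prostate these contacts separate the secretions in the gland's lumen from the tissue below.

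The deposited values are probe set intensities on a linear scale, and array medians lay between 48.5 and 73.7. The luminal label was checked with defining markers: on the 7 arrays the secretory gene Pbsn was read at 11930 to 12447, and the keratins Krt18 and Krt8 at 9923 to 11187 and 5505 to 8523. Genes of other cell types were also read. The summed intensity of 10 basal cell markers was 8679 to 22787 in WT and 3653 to 20452 in T-ETV1. That of 10 endothelial markers was 1869 to 5789 in WT and 619 to 2736 in T-ETV1, that of 11 leukocyte markers 149 to 14802 and 213 to 6735, and that of 12 fibroblast and smooth muscle markers 4308 to 25812 and 2003 to 9271. Single genes of similar level in both groups made up most of some low sums. In the basal sum this was Dst, at 3007, 3021 and 3304 on T-ETV1 A, B and D and 3155 to 3943 in WT. In the endothelial sum it was Emcn, at 555 and 713 on T-ETV1 A and D and 575 to 713 in WT. In all 4 lists WT C had the highest sum of the WT arrays and T-ETV1 C the highest of the T-ETV1 arrays. Of the defining markers of these cells, Cdh5 was at 1, the smallest value of the table, on T-ETV1 D, and Ptprc was under 10 on WT A, WT B, T-ETV1 A, T-ETV1 B and T-ETV1 D. In sorted bulk cells, a different share of cells of a type and a different amount of RNA per cell cannot be told apart.

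No junction gene passed the test between T-ETV1 and WT. None of the 10 had a limma adjusted p under 0.05, where 0.0% of all 18193 genes passed, and none had an unadjusted p under 0.05, where 6.12% of all genes (1113) did. The arrays of the groups overlapped for all 10, while they did not overlap for 6.32% of all genes. On the scale of log2(intensity + 16), 7 of the 10 were higher and 3 lower in T-ETV1, beside 8076 higher and 10117 lower of all genes. All 10 were higher after median centring, and 5 of 10 were higher without T-ETV1 B. The median difference over the 10 genes was 0.04, beside -0.03 over all genes. Leaving out T-ETV1 B turned it to -0.042, and leaving out T-ETV1 A raised it to 0.105. Median centring moved the median of all genes to 0.11 and that of the 10 genes to 0.18. The precision differed widely between the genes. The 95% interval for Cldn7 ran from 0.905-fold to 1.27-fold of WT, and that for Cldn4 from 0.428-fold to 2.81-fold. Such an interval gives the differences compatible with these 3 and 4 arrays. How large a difference would have passed the test was not computed.

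**Figure D1:**
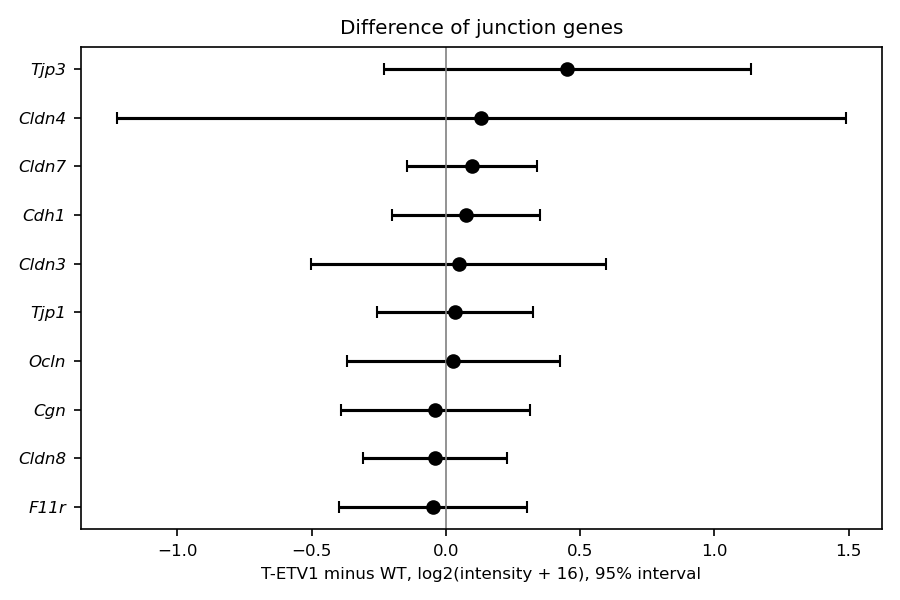
Difference of each junction gene, T-ETV1 minus WT, on the log2(intensity + 16) scale (horizontal axis), as a point with its 95% interval from limma, over 3 WT and 4 T-ETV1 arrays. Every interval includes 0. The interval for Cldn4 is the widest, from -1.23 to 1.49, and that for Cldn7 the narrowest, from -0.14 to 0.34.

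Cdh1, which encodes E-cadherin, was read at 4708, 4964 and 5286 in WT A to C and at 5102, 6044, 4852 and 5043 in T-ETV1 A to D. T-ETV1 B was the highest array and the others lay within the WT range. WT had a mean intensity of 4986 ± 290 (SD, n = 3), and T-ETV1 one of 5260 ± 533 (SD, n = 4). The log2 difference was 0.07 ± 0.12 (SE; limma adjusted p = 0.954), and 0.005 without T-ETV1 B. The 95% interval reached from 0.869-fold to 1.27-fold of WT.

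Of the 4 claudins among the 10 genes, Cldn4 varied most. It was read at 1008, 1426 and 1073 in WT A to C and at 1312, 3457, 569 and 991 in T-ETV1 A to D. Both the highest and the lowest of the 7 values were thus in T-ETV1: T-ETV1 B was 2.42 times the next highest array and 6.08 times T-ETV1 C. Claudin 4 is a claudin of tight epithelia that, with claudin 3, is also a receptor for an enterotoxin of Clostridium perfringens. The log2 difference was 0.13 ± 0.57 (SE; limma adjusted p = 0.987). With T-ETV1 B left out it became -0.35 (adjusted p = 0.964), and with T-ETV1 C left out 0.51 (adjusted p = 0.789).

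Cldn3 was read at 3023, 3720 and 2996 in WT and at 2997, 4969, 2663 and 3131 in T-ETV1. As for Cldn4, T-ETV1 B was the highest array and T-ETV1 C the lowest. The log2 difference was 0.05 ± 0.23 (SE; limma adjusted p = 0.989), and it was -0.14 without T-ETV1 B. Cldn3 had 4 probe sets, and T-ETV1 B was the highest and T-ETV1 C the lowest array in each of them. The ratio of T-ETV1 B to the next highest array was 1.34 in the brightest probe set, which stands for the gene here, and 1.40, 1.52 and 1.92 in the others. The brightest and the one with 1.40 are of the x_at type, which holds probes that can also match other transcripts, and the other pair is of the a_at type, designed to match transcripts of a single gene.

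Cldn4 and Cldn3 lie next to each other in the RefSeq annotation of GRCm38.p6, with no other gene between them. The 250 bases before the start of each are printed here because the pair lie side by side and have the same highest and lowest array, as does Cgn, which lies elsewhere in the genome. RefSeq windows were matched for 8 of the 10 genes, and Cdh1 and Cldn8 are given by name. Cldn4 is on the minus strand (chr5:134946935-134947184) and Cldn3 on the plus strand (chr5:134985964-134986213). Capitals mark matches to the GC box GGGCGG, the letters bound by Sp1, and to the E-box CACCTG, which the repressors of the Snail and Zeb families bind, searched on both strands with the ETS core CCGGAA. No match overlapped another.
Cldn4: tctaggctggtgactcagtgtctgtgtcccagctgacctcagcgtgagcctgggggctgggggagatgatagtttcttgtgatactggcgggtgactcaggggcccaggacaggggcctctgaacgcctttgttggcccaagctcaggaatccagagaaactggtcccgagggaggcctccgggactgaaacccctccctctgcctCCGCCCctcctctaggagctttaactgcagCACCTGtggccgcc
Cldn3: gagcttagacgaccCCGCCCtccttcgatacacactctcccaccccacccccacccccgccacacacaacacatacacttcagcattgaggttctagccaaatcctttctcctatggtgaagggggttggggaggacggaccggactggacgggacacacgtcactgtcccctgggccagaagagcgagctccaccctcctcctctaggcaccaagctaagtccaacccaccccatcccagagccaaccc
In the Cldn4 window the GC box begins at base 207 and the E-box at base 237, counted from 1 at the 5′ end, and in the Cldn3 window the GC box begins at base 15. Over all 32851 windows of this length, 32.7% held the GC box, 17.2% the E-box and 12.0% the ETS core. Of the 11 windows of the 8 matched genes, 8 held the GC box, 6 the E-box and 3, those of Cldn7 and 1 of Ocln, the ETS core. These matches describe the letters alone.

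The 2 other claudins varied less. Cldn7, a claudin found also along the lateral membrane, was read at 4451, 4345 and 4401 in WT and at 4510, 5231, 4387 and 4755 in T-ETV1. The WT arrays lay close together and T-ETV1 B was again the highest. Its log2 difference was 0.10 ± 0.10 (SE; limma adjusted p = 0.923), and 0.05 without T-ETV1 B. Cldn8 was read at 3588, 3187 and 3372 in WT and at 3623, 2914, 3332 and 3315 in T-ETV1. It was the only one of the 10 in which T-ETV1 B was the lowest array. Claudin 8 is best known as a barrier claudin of the distal nephron. The log2 difference of Cldn8 was -0.04 ± 0.11 (SE; limma adjusted p = 0.982), and it turned to 0.10 after median centring and to 0.02 without T-ETV1 B.

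**Figure D2:**
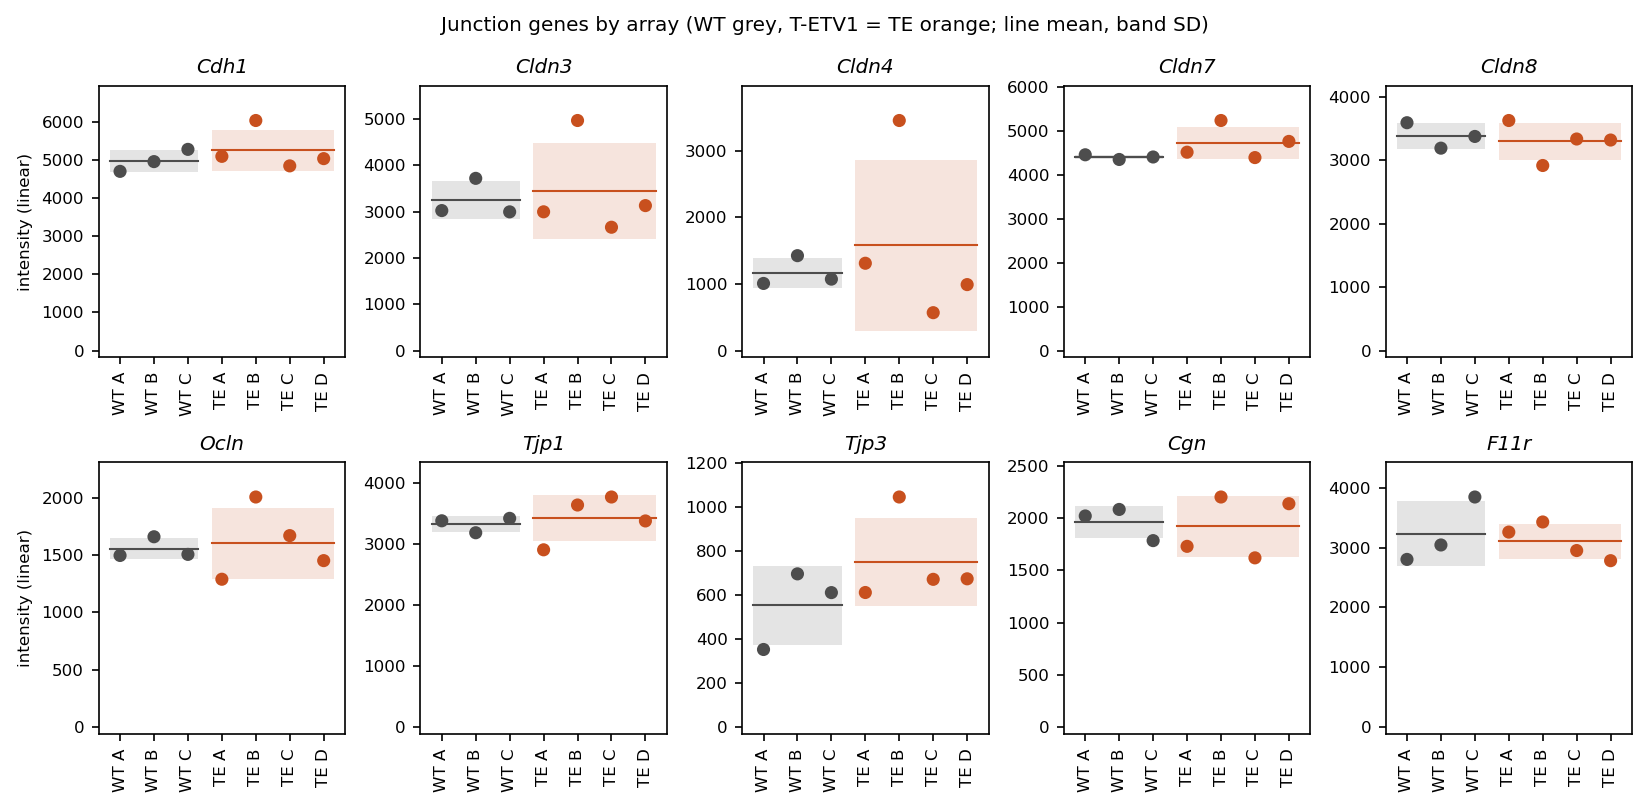
Linear probe set intensity (vertical axis, from 0) of the 10 junction genes on each array (horizontal axis; WT A to C in grey, T-ETV1 A to D, written TE, in orange). Points are arrays, lines are group means and bands 1 SD. T-ETV1 B is the highest point for 7 of the 10 genes and the lowest for Cldn8, while Cldn4 runs from 569 to 3457.

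Occludin and F11r are the other membrane proteins of the group. Ocln, whose product lies in the tight junction strands and helps to regulate them, was read at 1498, 1661 and 1507 in WT and at 1290, 2008, 1671 and 1453 in T-ETV1. The T-ETV1 arrays lay on both sides of the WT range, with B the highest and A the lowest. Its log2 difference was 0.03 ± 0.17 (SE; limma adjusted p = 0.991). In its second probe set T-ETV1 B was also the highest array, at 2010, and WT A the lowest, at 1043. F11r, which encodes the immunoglobulin-like adhesion molecule JAM-A, was read at 2802, 3044 and 3846 in WT and at 3259, 3428, 2951 and 2781 in T-ETV1. It was the only one of the 10 genes with its highest value in WT C, the highest array for 24.2% of all genes. The log2 difference was -0.05 ± 0.15 (SE; limma adjusted p = 0.984), and it became 0.08 without WT C, 0.11 without both arrays C and 0.09 after median centring. JAM-A is made by endothelial cells and leukocytes as well as epithelium. The sums of the endothelial and leukocyte markers were also highest in WT C, as were those of the basal and the fibroblast and smooth muscle markers. Within T-ETV1 the endothelial and leukocyte sums were highest on array C, at 2736 and 6735. F11r was at 2951 there, below T-ETV1 A and B. The part of other cells in the F11r value was not tested. The second probe set of F11r read from 1 to 4.14 on all arrays and gives no usable level.

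The scaffold proteins were Tjp1, Tjp3 and cingulin. Tjp1 encodes ZO-1, which binds claudins and occludin through separate domains and links them to actin. It was read at 3377, 3181 and 3417 in WT and at 2902, 3635, 3766 and 3374 in T-ETV1. The T-ETV1 arrays lay on both sides of the narrow WT range. Its log2 difference was 0.03 ± 0.12 (SE; limma adjusted p = 0.986), with a sign that turned, to -0.01, without T-ETV1 C. Cgn, which encodes cingulin, was read at 2021, 2084 and 1785 in WT and at 1730, 2203, 1620 and 2139 in T-ETV1. The T-ETV1 arrays again lay on both sides of the WT range, with B the highest and C the lowest, and the log2 difference was -0.04 ± 0.15 (SE; limma adjusted p = 0.986). The sign turned after median centring (0.10) and in the second probe set (0.05), which was dim, at 27.3 to 236, and in which T-ETV1 B was again the highest and T-ETV1 C the lowest array.

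Tjp3, which encodes ZO-3, a relative of ZO-1 restricted to epithelia, had the largest difference of the 10. It was read at 352, 696 and 610 in WT and at 611, 1045, 671 and 673 in T-ETV1. WT A was the lowest and T-ETV1 B the highest array, and the remaining 5 lay between 610 and 696. WT had a mean intensity of 553 ± 179 (SD, n = 3), and T-ETV1 one of 750 ± 199 (SD, n = 4). The log2 difference was 0.45 ± 0.29 (SE), from 9.10 to 9.55, with a limma adjusted p of 0.876 and an interval from 0.852-fold to 2.20-fold. It was 0.17 without WT A and 0.29 without T-ETV1 B, and 0.64 without WT B. Tjp3 was also the only one of the 10 that was higher in T-ETV1 within all 3 pairs of like replicate letter, by 0.77, 0.58 and 0.13 for A, B and C.

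One T-ETV1 array stood highest for most of the junction genes. T-ETV1 B was the highest of the 7 arrays in 7 of the 10 genes (Cdh1, Cldn3, Cldn4, Cldn7, Ocln, Tjp3 and Cgn) and in 12 of their 16 probe sets. Over all genes the same array was the highest in 17.6%, and over the 5035 genes with a mean intensity of 1000 or more in 21.1%. This array was singled out after the values were seen, and these shares are a description with no test. Its lead over the next highest array ran from 1.03 times for Cgn through 1.14 times for Cdh1, 1.20 times for Ocln and 1.5 times for Tjp3 to 2.42 times for Cldn4. The count was 6 of 10 after quantile normalization and 8 of 10 after median centring. The median deviation of the 10 genes from their 7-array mean was 0.22 on T-ETV1 B and between -0.10 and 0.02 on the other arrays. The SD of the log2 values was larger in T-ETV1 than in WT for 8 of the 10 genes, the exceptions being Tjp3 and F11r. T-ETV1 B is among the arrays of that SD, and the share over all genes was not computed. Over all 7 arrays this SD ran from 0.10 for Cldn7 and 0.11 for Cldn8 to 0.45 for Tjp3 and 0.78 for Cldn4. The median SD of genes with a mean intensity of 1000 or more was 0.15.

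**Figure D3:**
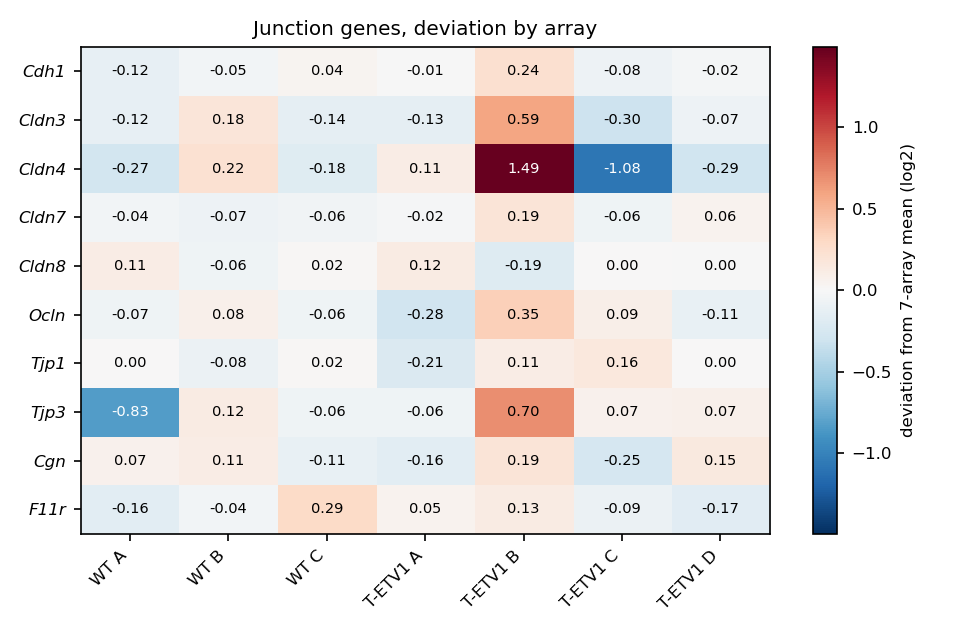
Deviation of each junction gene (rows) on each array (columns) from its own 7-array mean, in log2(intensity + 16), with red for higher and blue for lower values. The column of T-ETV1 B is the highest for 7 of the 10 genes, at 1.49 for Cldn4 and 0.59 for Cldn3, and is -0.19 for Cldn8, while T-ETV1 C is at -1.08 for Cldn4 and WT A at -0.83 for Tjp3.

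The pairs of like replicate letter showed the same array. Between WT B and T-ETV1 B, 9 of the 10 genes were higher in T-ETV1, all but Cldn8, with a median log2 difference of 0.27. Between the A arrays 6 were higher and 4 lower (median 0.02), and between the C arrays 3 were higher and 7 lower (median -0.07). Shares over all genes were not computed for the pairs. For Cldn4 the 3 pairs gave 0.37, 1.27 and -0.90. With the replicate letter as a block, over arrays A to C, no member passed. The Cldn4 difference was then 0.25 (adjusted p = 0.972) and that of Tjp3 0.49 (adjusted p = 0.704). Both differences were the same without a block when T-ETV1 D was left out. Their change thus comes from leaving out that array, and the block alters only their precision.

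Genes outside the group also had extreme values on T-ETV1 B. Of 8 luminal markers 5 were the highest there, among them Krt8 at 1.18 times the next array, and their summed intensity was 68618, against 62271 to 66222 on the other arrays. The sum of 6 seminal vesicle secretion markers was also the highest there, at 52710 against 36324 to 50061. None of the 10 basal, 10 endothelial, 11 leukocyte or 12 fibroblast and smooth muscle markers was the highest on T-ETV1 B. The endothelial sum there, 619, and the fibroblast and smooth muscle sum, 2003, were the lowest of all arrays. The basal and leukocyte sums were not. Among the 10 basal markers, Krt5 and Krt14 had their lowest value on T-ETV1 B, at 16.4 and 19.9. The other 8 had it on T-ETV1 A or D, and the basal sum on T-ETV1 B, 4546, was above the 3653 of T-ETV1 A. The leukocyte sum on T-ETV1 B, 263, was above the 149 of WT A. The part of these differences in the junction genes was not tested.

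Cldn4, as the member with the largest SD, was set against all genes with a mean intensity of at least 100 and an SD of at least 0.2. Likeness was the root mean square difference of log2 profiles centred on their 7-array mean, so that a small value means a similar profile. The nearest gene was Cdc42ep1, at 0.15, with 861 on T-ETV1 B and 115 to 264 on the other arrays. Next came Hopx, an atypical homeobox gene, and Cadm4, an immunoglobulin-like adhesion molecule, both at 0.27. The clone-named gene 1810073O08Rik at 0.28 and the acetyltransferase family gene Nat8f1 at 0.29 followed. T-ETV1 B was the highest array in all 5, which the choice by likeness to Cldn4 fixes. The 5 genes were the same with a pseudocount of 1 and after median centring, while 3 of the 5 remained with a pseudocount of 64 and 3 after quantile normalization. Wbscr25, a long noncoding RNA gene that overlaps Cldn3 in the annotation, was chosen after its values were seen. It was the gene ranked 4 in likeness to Cldn3, at 0.08, with 2751 on T-ETV1 B and 1238 to 1809 on the others. Cldn13, another claudin gene near this pair, was read at under 30 on every array.

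Further junction genes, in 5 lists with 87 measured genes, gave the same picture of the test. None passed the threshold, 7 had an unadjusted p under 0.05, beside 6.12% of all genes, and T-ETV1 B was the highest array in 25. The counts of higher and lower genes in these lists stand beside 8076 higher and 10117 lower over all genes. Of 15 other claudins 10 were higher and 5 lower in T-ETV1 (median 0.04). Cldn11, a claudin of myelin and the testis, had the smallest p, at -1.22 ± 0.50 (SE; limma adjusted p = 0.805), with intensities of 109 or less throughout. Cldn23 was read at 608, 880 and 679 in WT and at 665, 1499, 490 and 812 in T-ETV1. It shared the highest and lowest arrays of Cldn3 and Cldn4 and was chosen after its values were seen. It was the only 1 of these 15 claudins with its highest value on T-ETV1 B, the highest array for 17.6% of all genes.

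Of 13 other membrane proteins of the tight junction 7 were higher and 6 lower (median 0.01). Jam3, a relative of F11r found also in endothelium, had -1.003 ± 0.38 (SE; limma adjusted p = 0.798), and -0.39 in its second probe set. In the first, the T-ETV1 arrays, at 4.38 to 11.9, lay below those of WT, at 14.8 to 79.7. Marveld2 encodes tricellulin, the protein of contacts between 3 cells. It was read at 887, 1186 and 911 in WT and at 1014, 2005, 752 and 945 in T-ETV1, again with B the highest and C the lowest, and was chosen after its values were seen.

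Of 20 other scaffold and polarity proteins 6 were higher and 14 lower (median -0.04, and 0.09 after median centring). Patj, a scaffold of the Crumbs polarity complex, was higher on all 4 T-ETV1 arrays, at 793 to 808, than on the WT arrays, at 664 to 728. Its log2 difference was 0.22 ± 0.09 (SE; limma adjusted p = 0.805), and its second probe set had a difference of -0.03. Mpdz, which encodes the related scaffold MUPP1 and was chosen after its values were seen, was lower on all 4 T-ETV1 arrays, at 233 to 797, than in WT, at 844 to 955. It had -0.81 ± 0.39 (SE; limma adjusted p = 0.835), and its second probe set had 0.32.

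Of 19 adherens junction partners 9 were higher and 10 lower (median -0.03, and 0.11 after median centring). The catenin genes Ctnnb1, Ctnna1 and Ctnnd1, named for their role because their products bind E-cadherin or each other, had differences of 0.06 ± 0.09, 0.03 ± 0.09 and -0.15 ± 0.13 (SE), none past the threshold. Cdh2, which encodes the N-cadherin of neural and mesenchymal cells, had the smallest p. It was read at 51.7, 60.4 and 55.3 in WT and at 34.4, 15.9, 11.4 and 6.28 in T-ETV1. The groups did not overlap, and the log2 difference was -1.19 ± 0.27 (SE; limma adjusted p = 0.628), with -0.54 in its second probe set. The fibroblast and smooth muscle markers were also lower in T-ETV1, in all 12 genes. So were all 10 endothelial, 9 of 10 basal and 9 of 11 leukocyte markers. The fibroblast and smooth muscle sum ran from 4308 to 25812 in WT, where Cdh2 stayed at 51.7 to 60.4. Within T-ETV1 this sum was highest on array C, at 9271, where Cdh2 was at 11.4, and Cdh2 was highest on array A. The part of other cells in the Cdh2 value was not tested.

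Of 20 transcription and splicing factors that act on junction genes 7 were higher and 13 lower (median -0.08, and 0.06 after median centring). Zeb1 and Zeb2 encode repressors of Cdh1 in mesenchymal cells. Zeb1 was read at 204, 614 and 1670 in WT and at 83.3, 134, 303 and 184 in T-ETV1, with a log2 difference of -1.81 ± 0.72 (SE; limma adjusted p = 0.804). Zeb2 had -1.58 ± 0.58 (SE; limma adjusted p = 0.789). Both were highest in WT C, as were the sums of the fibroblast, leukocyte and endothelial markers. The differences were -1.08 and -1.06 without WT C, and -0.62 for each with probe sets averaged. In the second probe set the difference was -0.028 for Zeb1 and -0.74 for Zeb2. Grhl1, a grainyhead-like activator of epithelial genes, was higher on all 4 T-ETV1 arrays, at 2066 to 2338, than in WT, at 1664 to 2015, with 0.26 ± 0.11 (SE; limma adjusted p = 0.812). Its relative Grhl2, an activator of Cdh1 and Cldn4 that was chosen after its values were seen, was lower on all 4, at 2376 to 3017 against 3101 to 3192 (-0.20 ± 0.11 SE, limma adjusted p = 0.863). Elf3 and Klf5, chosen after their values were seen, were highest on T-ETV1 B, at 2.06 and 1.90 times the next array.

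A pair of claudins outside the 10 had their highest values on the arrays where other-cell markers were high. Cldn1 was read at 311, 671 and 1701 in WT and at 39.4, 214, 839 and 115 in T-ETV1. The C array was the highest of each group, as for the basal marker Krt5, at 349, 1578 and 2364 in WT and at 24.7, 16.4, 1753 and 205 in T-ETV1. The log2 difference of Cldn1 was -1.91 ± 0.99 (SE; limma adjusted p = 0.848), with -0.57 for its probe sets averaged. Cldn5, the claudin of endothelium, was read at 267, 282 and 315 in WT and at 15.9, 15.7, 222 and 13.3 in T-ETV1. All T-ETV1 arrays lay below WT, with C far above the others of its group. Its log2 difference was -2.56 ± 0.76 (SE; limma adjusted p = 0.737), and it passed without T-ETV1 C (-3.29, adjusted p = 0.00181) and without both arrays C (-3.23, adjusted p = 0.00793). The endothelial cadherin Cdh5 was read at 548, 515 and 1483 in WT and at 68.6, 17.6, 872 and 1 in T-ETV1. Both claudins were chosen after their values were seen, and the part of other cells in them was not tested.

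**Figure D4:**
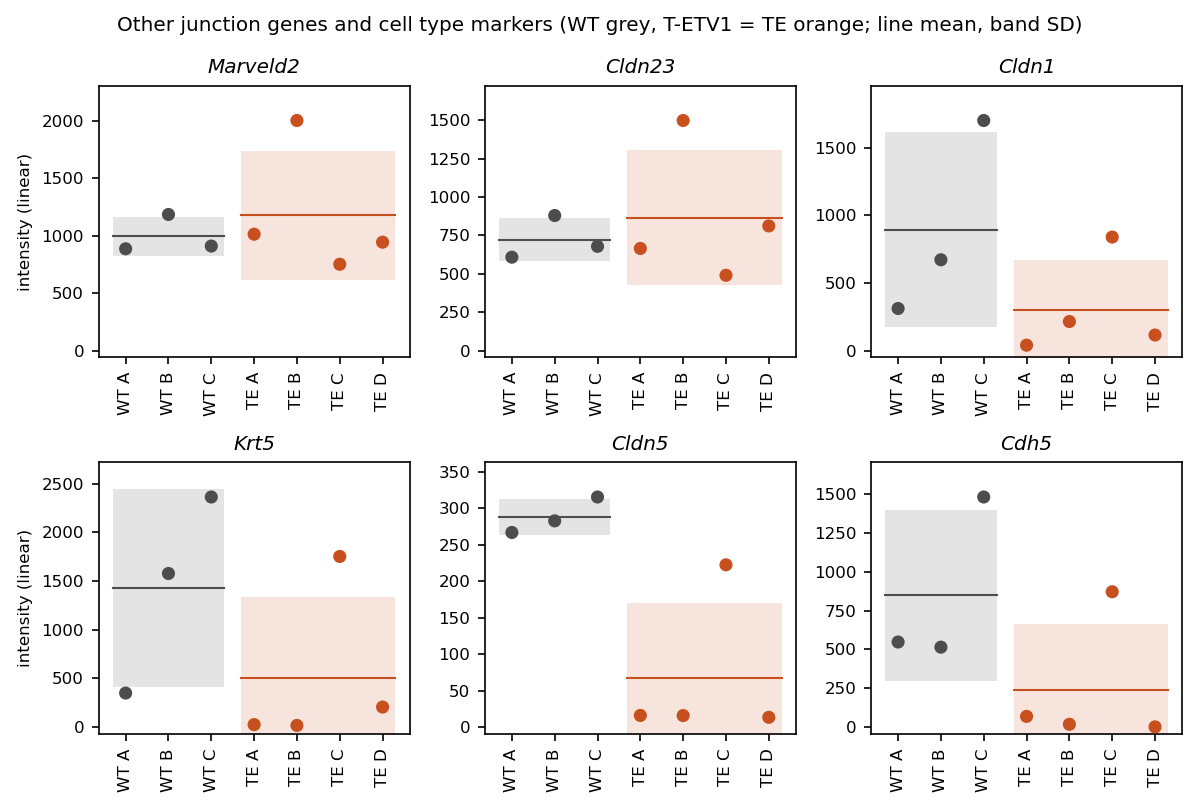
Linear probe set intensity (vertical axis, from 0) by array for Marveld2, Cldn23, Cldn1, the basal keratin Krt5, Cldn5 and the endothelial cadherin Cdh5, drawn as for the 10 junction genes (points are arrays, lines group means, bands 1 SD, cut at the lower edge). Marveld2 and Cldn23 peak on T-ETV1 B at 2005 and 1499, and the other 4 are highest on WT C and, within T-ETV1, on T-ETV1 C.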

How the data were processed

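The deposited intensities are linear, 1 per probe set and array, per the labels for 3 WT and 4 T-ETV1 arrays. RNA was extracted with Trizol and amplified with a NuGEN kit, per the labels' protocols. The summary of probes to probe sets and the scaling of arrays are unknown (not given in the sources used here). Probe sets were named by the platform annotation, with symbols updated by Entrez ID (34741 of 34945 with 1 symbol). Those with several symbols (932) or none (9160) were left out. The probe set with the highest mean stood for a gene. Values were taken as log2(intensity + 16), which understates differences of dim genes. The test was limma 3.58.1 (R 4.3.3; lmFit and eBayes, two-sided) over all 18193 genes, with Benjamini-Hochberg adjustment and a threshold of 0.05, and the fit was tested on simulated data. The members and lists were chosen with earlier results of these data known. Genes named beyond the members are, of each list, up to 4 with an unadjusted p under 0.05, or the 1 with the smallest p, the defining markers, and the 5 most like the most variable member. Others are said to be chosen after their values were seen. Alternatives were 2 other scalings, 2 other pseudocounts, a filter on low genes, other rules for probe sets, a trend, array weights, a replicate block and leaving out arrays.

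The labels use the letters A to C in both groups. Deviations from the group means over all genes correlated at 0.281, 0.217 and 0.356 for like letters, each over the limit of 0.1 that was taken for pairing. The letters were therefore taken as pairs in the differences by pair and in the replicate block, which leaves out T-ETV1 D. The main fit, with its p-values, SEs and intervals over all 7 arrays, does not use the pairing. One unlike pair, WT A and T-ETV1 D, also exceeded it, at 0.187. The number of arrays limits the precision, and the p-values set each difference against the spread between these samples. In the main fit that spread includes any difference between replicate letters.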

Additional observations from a re-analysis of the deposited data

Results flagged for a closer look

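None of the 10 junction genes had an array that stood apart from the others of its group by Dixon's criterion at 95%, which takes the gap to the nearest array over the range of the 4 T-ETV1 arrays. The nearest to it was Tjp3, at 0.820 for T-ETV1 B. The check covered 159 genes: the 10, all measured genes of the other junction and marker lists, and the genes named for likeness. It found 22. The criterion lets about 1 in 20 genes stand apart by chance. That share cannot be set against the 22, because genes of a list can move together, as 11 other-cell markers did on T-ETV1 C.

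T-ETV1 B stood above the rest of its group in 5 genes. They were Cxadr, an adhesion receptor of the tight junction (ratio 0.950), the polarity gene Crb3 (0.943), Jup, which encodes plakoglobin (0.90), the epithelial ETS factor gene Elf3 (0.866) and the seminal vesicle secretion gene Svs5 (0.835). T-ETV1 C stood above the rest in 14 genes, of which 11 are in the lists of other-cell markers. These 11 were Krt14 (0.899) and Lama3 (0.885) among the basal markers, Pecam1 (0.967), Cldn5 (0.960), Kdr (0.844) and Tie1 (0.878) among the endothelial, Ptprc (0.867), Csf1r (0.899) and Adgre1 (0.843) among the leukocyte, and Acta2 (0.858) and Des (0.830) among the fibroblast and smooth muscle markers. The other 3 were Arhgef2 (0.889), Snai2 (0.907) and Twist2 (0.888). T-ETV1 C lay below the rest for Nectin4 (0.990), an adherens junction adhesion molecule read at 91.3 there against 289 to 292, and for the dim claudin gene Cldn9 (0.841). T-ETV1 D lay below the rest for Afdn (0.871), which encodes afadin. WT, with 3 arrays, was not checked in this way.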

How the results depend on the processing

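No junction gene passed under any alternative run (smallest adjusted p 0.643), and the replicate block changed no call among them. Of 174 differences of the members under alternatives, 24 turned sign and 150 did not. The trend and the filter on low genes leave each difference as it was, so no sign could turn there. The same holds for averaging in the 6 members with 1 probe set. The replicate block repeats the differences found without T-ETV1 D. The 150 thus overstate how often a sign was put to the test. Cdh1, Cldn7 and Tjp3 kept their sign under all alternatives (0.005 to 0.210 for Cdh1, 0.048 to 0.235 for Cldn7 and 0.17 to 0.64 for Tjp3). Leaving out 1 array gave ranges of -0.14 to 0.16 for Cldn3, -0.35 to 0.51 for Cldn4, -0.086 to 0.018 for Cldn8, -0.086 to 0.125 for Ocln, -0.015 to 0.110 for Tjp1, -0.108 to 0.039 for Cgn, -0.144 to 0.083 for F11r, -0.15 to 0.38 for Cldn23 and -0.13 to 0.33 for Marveld2. Array weights gave -0.090 for Cldn3, -0.032 for Cldn4, 0.029 for Cldn8, -0.091 for Ocln, -0.017 for Cldn23 and -0.022 for Marveld2. Median centring gave 0.18 for the median of the members, 0.10 for Cldn8, 0.098 for Cgn and 0.088 for F11r. With probe sets averaged Cgn had 0.005, and with each on its own Cgn had 0.049, Mpdz 0.325 and Patj -0.031. With the replicate block, as without T-ETV1 D alone, F11r had 0.002. Without both arrays C, chosen after seeing the data, Ocln had -0.02 and F11r 0.11. Over all genes 0 to 27 passed when 1 array was left out (7 without WT C, 27 without T-ETV1 C), and 68 without both arrays C. The cause of these shifts was not tested.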
